A study of Homo sapiens with 9 samples.

Results

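The response of SNU-398 cells to overexpression of full-length EMX1 (EMX1-FL) was described across all expressed genes, by comparing the 3 EMX1-FL libraries with the 3 vector control libraries. These 6 libraries, chosen by their sample labels, are part of a set of 9. SNU-398 is a mesenchymal-like hepatocellular carcinoma (HCC) line. The other 3 libraries came from cells that overexpress EMX1-X1, the second EMX1 isoform of the study. They entered the model, where they share in the estimate of the spread, and are described only where the isoforms are set side by side. EMX1-FL and EMX1-X1 cells were made by lentiviral delivery of the construct and selection with puromycin,; the labels name no clones. The vector control carries the genotype label "Wild type" and the same puromycin selection label. All cells grew in RPMI1640 with fetal bovine serum and penicillin/streptomycin. Nothing in the labels says that the 3 libraries of a group came from separate cultures, so the p-values measure the spread between these libraries, which may be technical.

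EMX1 is a homeodomain transcription factor that patterns the developing cerebral cortex. Homeodomain proteins bind short AT-rich DNA sites and can raise or lower the transcription of nearby genes. Hepatocellular carcinoma cells with mesenchymal features express matrix proteins, proteases and transcription factors of the epithelial-mesenchymal transition (EMT), and the receptor tyrosine kinase EGFR signals through ERK to immediate early genes.

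The depth of the 9 libraries ran from 21562703 to 25197970 counted read pairs. Some differences between libraries were not explained by the groups. Along the first axis of a principal component analysis (39.6% of the variance) 5 libraries, called cluster A here, lay apart from the other 4, cluster B, whose counts leaned towards GC-rich genes. Vector control and EMX1-FL each had 2 libraries in cluster A and 1 in cluster B, which for EMX1-FL was replicate 1. The clusters are no recorded batch. They were read from the same expression values, so fits with the cluster as a term give no independent support. On the third component the EMX1-FL libraries were spread out, at -46.7, -20.7 and 5.08, with replicate 1 at one end. EMX1-FL replicate 1 had 2.94% of its counts on mitochondrial messenger RNAs against 4.6% and 5.41% in the other EMX1-FL libraries. Where a named gene lost its call at the study threshold without EMX1-FL replicate 1, that is stated beside it. The calls of MT-TA, MT-TV, MT-TD, ITGBL1 and GFRA1 were not followed in this way. Values are given as CPM, counts per 1000000 after TMM normalization, which is not scaled by gene length.

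EMX1 itself, the overexpressed gene, was at 9.34, 9.99 and 12.9 CPM in the vector control libraries and at 251, 135 and 145 CPM in the EMX1-FL libraries. The groups did not overlap, and EMX1-FL replicate 1 was the highest. For EMX1, edgeR's quasi-likelihood test gave a log2 fold change of 4.04 with a standard error of 0.34 and an adjusted p of 0.00121 (Benjamini-Hochberg). The counts do not tell transcripts from the construct and from the cell's own gene apart.

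Beyond EMX1, more genes were called higher than lower. The study threshold asks for a change of at least 1 on the log2 scale, up or down, and an unadjusted p under 0.05, and 450 of 18574 genes tested met it. Of these, 379 were higher in EMX1-FL cells (2.04% of genes tested) and 71 were lower (0.382%). Without EMX1-FL replicate 1 the counts were 449 higher and 227 lower, so that the share higher among the genes called was 66.4% in place of 84.2%, and the lower genes described here are those of the fit with all libraries. At an unadjusted p under 0.05 alone, 738 genes were higher (3.97%) and 339 were lower (1.83%). When p was adjusted over all genes, 13 genes passed at 0.05 (0.07%), each of them higher in EMX1-FL cells. The median log2 fold change of all genes tested was 0.045.

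The higher genes were mostly expressed at a low level. Their median was 1.19 CPM, against 15.9 CPM for all genes tested, and 163 of the 379 were under 1 CPM on average. Among genes under 1 CPM, 5.01% were called higher, and among genes of 100 CPM and over 0.122% were. The median standard error of the log2 fold change was 0.61 in the first of these classes and 0.20 in the second. The higher genes spanned a median of 49.2 kb on the chromosome, against 24.3 kb for all genes tested. The lower genes were also mostly at a low level, with a median of 0.755 CPM and 45 of the 71 under 1 CPM. Of the 71, 22 were protein coding (31%), against 71.4% of all genes tested, and 10 were processed pseudogenes. Gene types were not compared at matched levels.

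The 12 genes past the adjusted threshold besides EMX1 encode a transcription factor, secreted and matrix proteins, cell surface proteins, receptors and enzymes. In every one of them the 3 EMX1-FL libraries lay above the 3 vector control libraries, as 10.5% of all genes tested did in one direction or the other. A two-sided exact permutation test of a single gene gives p = 0.1 for such a separation, the smallest p that 3 libraries against 3 allow.

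SNAI2 encodes Slug, an EMT transcription factor that represses epithelial genes. It was at 3.64, 3.19 and 2.64 CPM in the vector control and at 12.1, 12.9 and 13.3 CPM in EMX1-FL cells. The EMX1-FL libraries lay close together. For SNAI2 the log2 fold change was 2.02, with a standard error of 0.22 and an adjusted p of 0.009 by edgeR.

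Secreted and matrix proteins made up a further group. MMP1, an interstitial collagenase, was at 7.41, 7.29 and 8.32 CPM in the vector control and at 23.5, 27.2 and 19.5 CPM in EMX1-FL cells (log2 fold change 1.61, adjusted p = 0.0165). At chr15:32718004-32745106 (GRCh38), GREM1, a secreted antagonist of bone morphogenetic proteins (BMPs), was at 20.8, 23.1 and 15.1 CPM and at 51.6, 69.3 and 61.4 CPM (log2 fold change 1.63, adjusted p = 0.0288). In both genes the lowest EMX1-FL library was above the highest vector library by a wide margin. PRSS23, a secreted serine protease with 12.2% of its exon bases shared with another gene, was at 10.8, 12.1 and 13.2 CPM against 35.3, 28.3 and 27 CPM (log2 fold change 1.33, adjusted p = 0.0288). COL12A1, a fibril-associated collagen, was at 75.3, 78.2 and 68.8 CPM against 150, 160 and 162 CPM (log2 fold change 1.09, adjusted p = 0.0497).

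Genes of the cell surface were higher as well. TGFBR2, the type II receptor for TGF-beta, was at 2.7, 2.14 and 2.27 CPM in the vector control and at 6.12, 8.76 and 9.05 CPM in EMX1-FL cells (log2 fold change 1.75, adjusted p = 0.0497). PTPRK, a receptor-type tyrosine phosphatase of cell contacts, was at 13.4, 14.6 and 13.8 CPM against 30, 36.9 and 41.7 CPM (log2 fold change 1.38, adjusted p = 0.0288). CD24, a glycosylated surface protein used as a marker of liver cancer stem cells, was at 16.6, 17 and 18.9 CPM against 36.7, 52.7 and 51.5 CPM (log2 fold change 1.42, adjusted p = 0.0372). In these 3 genes EMX1-FL replicate 1 was the lowest of its group and still above the vector control. KCNA1, a voltage-gated potassium channel, was at 3.64, 4.19 and 3.59 CPM against 8.69, 10.2 and 11.3 CPM (log2 fold change 1.40, adjusted p = 0.0393).

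The remaining genes were metabolic or less well described. TDO2, at chr4:155854738-155920406 (GRCh38), encodes tryptophan 2,3-dioxygenase, the first enzyme of the kynurenine pathway in the liver. It was at 11.9, 11.7 and 9.31 CPM in the vector control and at 35, 42.1 and 38.1 CPM in EMX1-FL cells, a log2 fold change of 1.81 (standard error 0.24, adjusted p = 0.0288). PLAAT1, a phospholipid-metabolizing enzyme, had a log2 fold change of 1.74 and SLC35D3, a member of the nucleotide sugar transporter family, one of 1.15 (adjusted p = 0.0497 for each). Neither group overlapped the other in any of these 3 genes.

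Without EMX1-FL replicate 1 all 13 genes were still past the adjusted threshold, among 88 in all. With the cluster of libraries as a term in the model they were among 111. Leaving out any one vector control library, or EMX1-FL replicate 2, left EMX1 alone past it, and leaving out EMX1-FL replicate 3, EMX1-X1 replicate 2 or EMX1-X1 replicate 3 left 3, 2 and 2 genes. All 13 kept the study threshold in each of the 22 alternative fits in which it was applied.

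**Figure D1:**
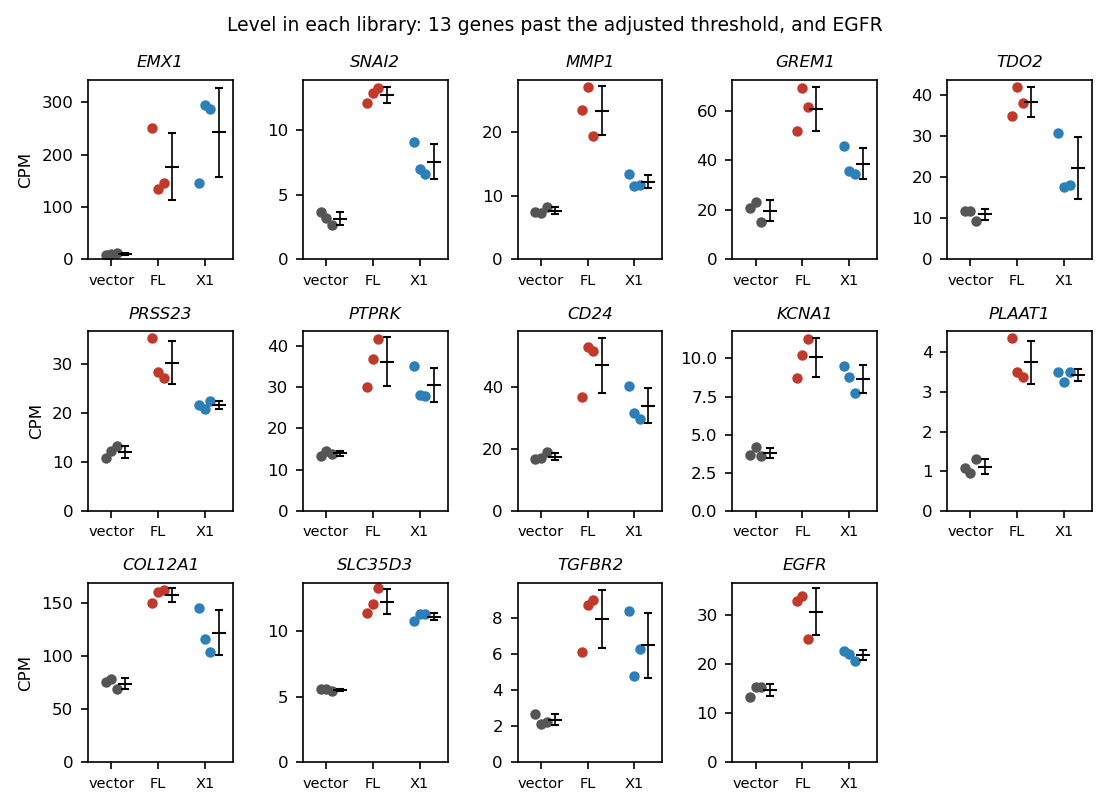
Level in CPM of the 13 genes past the adjusted threshold and of EGFR in each library of vector control (grey), EMX1-FL (red) and EMX1-X1 (blue), with the mean and SD of each group in black. In every gene the 3 EMX1-FL libraries are above the 3 vector control libraries; for SNAI2 they are at 12.1 to 13.3 CPM against 2.64 to 3.64 CPM.

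Promoter windows of 300 bases, a single window per gene, were taken from RefSeq (GRCh38.p14) for 9 of the 13 genes. Each ran from 250 bases before to 50 after the start listed there. For TDO2 and PRSS23 the window lies inside the span over which the gene was counted. The windows were searched on both strands for the homeodomain core TAATTA, the E-box CAGGTG and the AP-1 site TGANTCA. None of the 9 held TAATTA, PRSS23 held CAGGTG and TDO2 held TGANTCA. Over the 214 higher genes with a window, 2.8% held TAATTA, 22.9% CAGGTG and 6.54% TGANTCA. The shares over all 11530 tested genes with a window were 2.09%, 18.2% and 4.41%. The 2 windows with a match among the 13 genes are printed, and beside them those of ITGBL1 and GFRA1, chosen after their values were seen, as higher genes with the homeodomain core. ITGBL1, an integrin beta-like secreted protein, was at 0.228 CPM in the vector control and 1 CPM in EMX1-FL cells on average, and GFRA1, a co-receptor for GDNF, at 0.893 and 2.24 CPM. The windows lie at chr4:155903446-155903745 on the plus strand for TDO2, chr11:86800292-86800591 on the plus strand for PRSS23, chr13:101452425-101452724 on the plus strand for ITGBL1 and chr10:116274656-116274955 on the minus strand for GFRA1, and are written 5′ to 3′ along the gene with the match in capitals.
TDO2: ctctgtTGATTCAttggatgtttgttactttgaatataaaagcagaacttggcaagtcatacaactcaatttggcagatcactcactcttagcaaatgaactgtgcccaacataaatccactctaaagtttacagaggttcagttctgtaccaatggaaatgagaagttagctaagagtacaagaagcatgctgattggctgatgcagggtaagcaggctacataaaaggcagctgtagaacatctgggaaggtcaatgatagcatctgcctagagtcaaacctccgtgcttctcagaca
PRSS23: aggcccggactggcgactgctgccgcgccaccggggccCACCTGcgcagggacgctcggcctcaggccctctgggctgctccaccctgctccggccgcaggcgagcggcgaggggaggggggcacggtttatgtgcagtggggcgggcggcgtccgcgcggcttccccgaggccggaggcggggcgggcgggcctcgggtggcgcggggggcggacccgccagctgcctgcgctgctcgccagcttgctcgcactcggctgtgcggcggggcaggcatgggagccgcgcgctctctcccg
ITGBL1: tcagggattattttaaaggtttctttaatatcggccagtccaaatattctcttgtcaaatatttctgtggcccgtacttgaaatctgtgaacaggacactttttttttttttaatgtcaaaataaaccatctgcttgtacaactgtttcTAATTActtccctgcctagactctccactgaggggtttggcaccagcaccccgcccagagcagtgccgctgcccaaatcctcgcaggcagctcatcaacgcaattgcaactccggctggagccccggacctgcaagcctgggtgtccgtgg
GFRA1: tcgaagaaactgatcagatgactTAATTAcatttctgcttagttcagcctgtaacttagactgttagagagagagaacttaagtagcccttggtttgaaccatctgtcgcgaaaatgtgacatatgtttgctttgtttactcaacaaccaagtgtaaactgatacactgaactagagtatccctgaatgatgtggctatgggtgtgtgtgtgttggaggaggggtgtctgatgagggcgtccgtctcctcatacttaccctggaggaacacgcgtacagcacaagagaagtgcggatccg

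Among the receptors and ligands of the ERBB family, EGFR was the receptor that passed the study threshold. It was at 13.4, 15.5 and 15.5 CPM in the vector control and at 33, 34 and 25.3 CPM in EMX1-FL cells. The groups did not overlap, and the log2 fold change of EGFR was 1.06 with a standard error of 0.18 and an adjusted p of 0.0627 by edgeR, which did not pass the adjusted threshold. With the cluster of libraries, read from these same data, as a term, the adjusted p of EGFR was 0.00209 by edgeR, which is no independent support. EGFR lost the study threshold without vector control replicate 1 or EMX1-FL replicate 2. ERBB2, ERBB3 and ERBB4 had log2 fold changes of 0.0086, -0.12 and -0.18. Of the ligands, TGFA passed the study threshold at a very low level, 0.114 CPM in the vector control against 0.516 CPM in EMX1-FL cells on average, and lost it without EMX1-FL replicate 2 or 3 or vector control replicate 2 or 3. Altogether 2 of the 8 members tested were higher and none was lower, with a median of 0.26, where 2.04% of all genes tested were higher.

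Transcripts that ERK signalling induces differed in direction among themselves. Of 23 ERK output and feedback genes tested, 1 passed the study threshold, EGR3, and it was lower. At an unadjusted p under 0.05 there were 4 lower and 2 higher, and the list had a median log2 fold change of -0.13. Over all genes tested 1.83% were lower and 3.97% higher at that p. EGR3, an immediate early transcription factor, was at 5.22, 3.84 and 3.01 CPM in the vector control and at 1.64, 1.9 and 1.76 CPM in EMX1-FL cells (log2 fold change -1.19, adjusted p = 0.216), a call lost without vector control replicate 1. FOS, a subunit of AP-1, was at 12.2, 12.7 and 13.6 CPM against 7.01, 7.75 and 6.93 CPM (log2 fold change -0.83, unadjusted p = 0.000605 and adjusted p = 0.163 by edgeR). All EMX1-FL libraries were below all vector libraries in both genes. EGR1 was at 262 and 191 CPM and SPRY2, a feedback inhibitor of receptor tyrosine kinases, at 212 and 147 CPM on average in vector control and EMX1-FL cells (log2 fold changes -0.46 and -0.53). The 2 higher members were PHLDA1 at 13.9 and 23 CPM and IER3 at 30.9 and 47.9 CPM. DUSP6, the ERK phosphatase whose transcript follows ERK activity, was at 54.7 CPM in the vector control and 65.1 CPM in EMX1-FL cells (log2 fold change 0.25, unadjusted p = 0.147), which did not pass. ERRFI1, which encodes an inhibitor of EGFR and was not in the list, was at 243, 272 and 274 CPM against 437, 469 and 374 CPM. Its log2 fold change was 0.70 (unadjusted p = 0.000915 and adjusted p = 0.189 by edgeR).

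Among 9 EMT transcription factors tested, SNAI2 and ZEB1 passed the study threshold, where 2.04% of all genes tested were higher. The list's median log2 fold change was 0.0046. ZEB1 was at 1.46, 0.786 and 0.536 CPM in the vector control and at 0.665, 2.95 and 2.86 CPM in EMX1-FL cells. EMX1-FL replicate 1 was within the range of the vector control, so the groups overlapped, and the call held in 10 of 22 alternative fits. ZEB2 was at 203 CPM in the vector control and 186 CPM in EMX1-FL cells on average, and TWIST1 at 157 CPM in both. Of 8 mesenchymal markers tested none passed the study threshold, 2 were higher at an unadjusted p under 0.05 by edgeR (FN1 and CDH2), and 7 were above 0, as 56.3% of all genes tested were, with a median of 0.59, or 0.39 without EMX1-FL replicate 1. FN1, fibronectin, was at 169, 161 and 175 CPM against 227, 262 and 277 CPM (log2 fold change 0.60, unadjusted p = 0.00133 and adjusted p = 0.216 by edgeR). CDH2, N-cadherin, was at 13 and 19.3 CPM on average (log2 fold change 0.58). VIM, vimentin, was at 1260 CPM in the vector control and 1330 CPM in EMX1-FL cells (log2 fold change 0.08). Of 8 epithelial markers tested none passed the study threshold, 1 was higher at an unadjusted p under 0.05, and 7 were above 0, against the same 56.3% of all genes, with a median of 0.34. The keratin gene KRT8 had 3 counts in total over the 9 libraries. The desmosomal gene DSP was at 41.8, 41.7 and 33.5 CPM against 49.1, 55.7 and 66.7 CPM, and CDH1, E-cadherin, was at 2.06 and 2.57 CPM on average.

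Proteases, collagens and integrins held further higher genes. Of 13 matrix metalloproteinases and inhibitors tested 2 were higher and none lower: MMP1, and MMP2 at 1.58, 2.23 and 3.13 CPM in the vector control against 7.32, 5.9 and 5.68 CPM in EMX1-FL cells (log2 fold change 1.44, adjusted p = 0.0733). The list had a median of 0.21. For this list and those that follow in this paragraph, the share higher over all genes tested was 2.04%. MMP10 was at 10.5 and 18.3 CPM on average, below the fold change required. The inhibitors TIMP1, TIMP2 and TIMP3 had log2 fold changes of -0.06, -0.31 and -0.02. SERPINE2, a serpin that inhibits thrombin and urokinase, joined PRSS23 among 8 genes of the plasminogen system and secreted proteases, at 6.25, 5.85 and 8.24 CPM against 12.2, 14.4 and 18.7 CPM (log2 fold change 1.15, adjusted p = 0.0989 by edgeR). SERPINE2 lost the study threshold without EMX1-FL replicate 3. That list had a median of 0.36. Of 16 collagens 2 were higher, COL12A1 and COL6A3, the latter at 3.34, 2.79 and 1.69 CPM against 7.45, 5.01 and 4.48 CPM. COL6A3 lost the study threshold without EMX1-FL replicate 1, with a log2 fold change of 0.87, and without vector control replicate 3. The basement membrane collagens COL4A1 and COL4A2 had log2 fold changes of 0.70 and 0.97. COL4A2 was at 42.9 CPM in EMX1-FL replicate 1 and at 16.7 and 18.2 CPM in the others. The fibrillar collagens COL1A1 and COL3A1 had log2 fold changes of -0.24 and -0.29. The median of the collagens was 0.40 over all libraries and -0.025 without EMX1-FL replicate 1. Of 15 integrin subunits, with a median of 0.28, ITGA2, a collagen receptor, was higher, at 2.65, 2.31 and 1.36 CPM against 5.06, 6.4 and 7.99 CPM (log2 fold change 1.62, adjusted p = 0.0679).

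Of 20 targets of YAP and TEAD, the effectors of the Hippo pathway, 2 were higher, none was lower and 6 were higher at an unadjusted p under 0.05, with a median log2 fold change of 0.16. Over all genes tested 2.04% were higher at the study threshold and 3.97% at an unadjusted p under 0.05. ANKRD1 was at 0.685, 0.436 and 0.412 CPM in the vector control and at 2.22, 2.57 and 2.54 CPM in EMX1-FL cells (log2 fold change 2.25, adjusted p = 0.0627). CCN2, a matricellular protein, was at 6.47, 6.11 and 5.07 CPM against 10.5, 17.5 and 14.9 CPM (log2 fold change 1.28, adjusted p = 0.0892). CCN1, AJUBA, NUAK2 and GADD45A were the other 4, with log2 fold changes between 0.36 and 0.75.

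In the TGF-beta pathway TGFBR2 was the 1 gene of 16 that passed the study threshold. The median log2 fold change was 0.091, or 0.27 without EMX1-FL replicate 1. The ligands TGFB1, TGFB2 and TGFB3 had log2 fold changes of -0.49, 0.13 and -0.32. Among 17 BMP ligands, antagonists and targets, with a median of 0.035, GREM1 and BMP6 were higher, where 2.04% of all genes tested were. BMP6 was at 3.34, 2.31 and 5.03 CPM in the vector control against 10.3, 5.94 and 6.56 CPM in EMX1-FL cells (log2 fold change 1.09, adjusted p = 0.361). BMP6 lost the study threshold without EMX1-FL replicate 1, with a log2 fold change of 0.81, and without vector control replicate 2. Below the fold change required, ID2, a transcriptional target of BMPs, was at 78.5, 65.2 and 61.9 CPM against 31.9, 45.5 and 42 CPM, with no overlap. Its log2 fold change was -0.78 (unadjusted p = 0.00124 and adjusted p = 0.216 by edgeR), while ID1 and ID3 had log2 fold changes of -0.15 and -0.19.

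Of 14 receptor-type protein tyrosine phosphatases 4 were higher (PTPRK, PTPRM, PTPRD and PTPRE) and none lower, where 2.04% of all genes tested were higher. PTPRM was at 5.18, 3.19 and 3.42 CPM against 7.63, 9.39 and 9.98 CPM (log2 fold change 1.19, adjusted p = 0.153), and PTPRD and PTPRE were at or under 0.41 CPM on average in the vector control. PTPRE lost the study threshold without EMX1-FL replicate 3 or vector control replicate 2. The list's median log2 fold change was 0.28. Of 6 genes tested in the list of tryptophan and kynurenine enzymes, which also holds the receptor AHR, 3 were higher, with a median of 0.84. Over all genes tested 2.04% were higher, among genes under 1 CPM 5.01% and among those of 1 to 10 CPM 3.7%. All the gene lists, this one and that of the phosphatases included, were chosen with earlier results of these data known. The shares and counts given for lists are therefore a description and no test. Besides TDO2 these were AHR, the receptor that kynurenine activates, at 1.03, 1.18 and 0.989 CPM against 1.73, 2.99 and 3.83 CPM, and KYAT1 at 0.171 and 0.633 CPM on average. KYAT1 kept the study threshold in 4 of the 9 fits that leave out 1 library. Of the exon bases of AHR 35.2% are shared with another gene, and of those of KYAT1 57.3%, so that their counts miss read pairs that overlap both. The indoleamine dioxygenase genes IDO1 and IDO2 were below the filter on low counts.

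Most liver genes were below the filter on low counts in these cells. Of 20 hepatocyte plasma protein genes 3 passed it, with 1 higher (ALB), and of 8 hepatocyte markers 2, ALB and ASGR1. ALB, albumin, was at 0.642, 0.436 and 0.742 CPM in the vector control and at 0.976, 1.64 and 2.45 CPM in EMX1-FL cells (log2 fold change 1.46, adjusted p = 0.467). Among 11 hepatocyte transcription factors ONECUT1 and PROX1 were higher and none was lower, from 1.02 to 2.28 CPM and from 0.368 to 1.44 CPM on average, with a list median of 0.10. Over all genes tested 2.04% were higher. Of the markers of other cells, 1 of 8 was tested for endothelial cells (ERG, higher, at 0.257, 0.131 and 0.495 CPM against 0.621, 1.47 and 0.878 CPM) and 1 of 10 for leukocytes (NKG7, not past the threshold). ERG lost the study threshold without vector control replicate 2 or EMX1-FL replicate 2. Of 9 markers of fibroblasts and stellate cells 8 were tested and none passed the study threshold. Of the 8, 4 were above 0 and 4 below, with a median log2 fold change of -0.033. DCN, decorin, was the 1 member with an unadjusted p under 0.05. It was at 84.7, 87.8 and 89.1 CPM against 53.4, 64.2 and 53.4 CPM (unadjusted p = 0.00607 and adjusted p = 0.422 by edgeR). All libraries are bulk samples of a single cell line, in which fewer cells that express a gene and less RNA per cell cannot be told apart.

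Outside these lists, LIMCH1, an activator of non-muscle myosin, was at 2.78, 3.36 and 3.13 CPM in the vector control and at 7.63, 9.73 and 8.04 CPM in EMX1-FL cells (log2 fold change 1.45, adjusted p = 0.0598). SOX11, a transcription factor of neural progenitors, was at 1.54, 1.66 and 1.57 CPM against 5.41, 4.38 and 3.88 CPM (log2 fold change 1.52, adjusted p = 0.0627). The groups did not overlap in either gene, which was a condition of the rule that named them. Of 13 genes of cortical neurons and progenitors, the tissue in which EMX1 acts in development, none passed the study threshold, 1 was higher at an unadjusted p under 0.05 by edgeR, and the median log2 fold change was 0.0096. EMX2, its paralog, was at 9.32 and 7.41 CPM on average (log2 fold change -0.33, unadjusted p = 0.237).

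The genes that were lower in EMX1-FL cells were fewer. EPHA7, an ephrin receptor of axon guidance, was at 5.78, 5.15 and 2.47 CPM in the vector control and at 0.444, 1.35 and 0.785 CPM in EMX1-FL cells (log2 fold change -2.37, standard error 0.52, adjusted p = 0.167). TMEM30B, a subunit of lipid flippases, was at 4.45, 3.84 and 4.16 CPM against 1.95, 2.44 and 1.71 CPM, and SLITRK1, a neuronal adhesion protein, at 3.21, 2.84 and 3.91 CPM against 1.77, 1.47 and 1.25 CPM. SEPTIN1, a filament-forming GTPase with 17.2% of its exon bases shared with another gene, was at 5.52, 4.1 and 4.2 CPM against 2.17, 2.11 and 2.36 CPM. In each of these 4 genes the groups did not overlap, which was a condition of the rule that named them. TMEM30B kept the study threshold in 15 of 22 alternative fits and lost it without EMX1-FL replicate 1, with a log2 fold change of -0.99, without EMX1-FL replicate 3 or vector control replicate 1 and with the GC offset. SEPTIN1 lost it without vector control replicate 1. NRP2, a co-receptor for semaphorins and VEGF that was chosen after its values were seen, was at 390, 412 and 428 CPM against 252, 210 and 213 CPM. Its log2 fold change of -0.87 was short of the threshold, and its adjusted p was 0.0627 by edgeR. The semaphorins of the same list differed in direction. SEMA3C was at 34, 24.2 and 16.6 CPM against 35.1, 65.3 and 84.7 CPM (log2 fold change 1.31), while SEMA3D was at 34 and 18.5 CPM on average (log2 fold change -0.88). Of the 29 axon guidance and neural adhesion genes tested 1 was higher and 1 lower at the study threshold, with a median of -0.09.

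**Figure D2:**
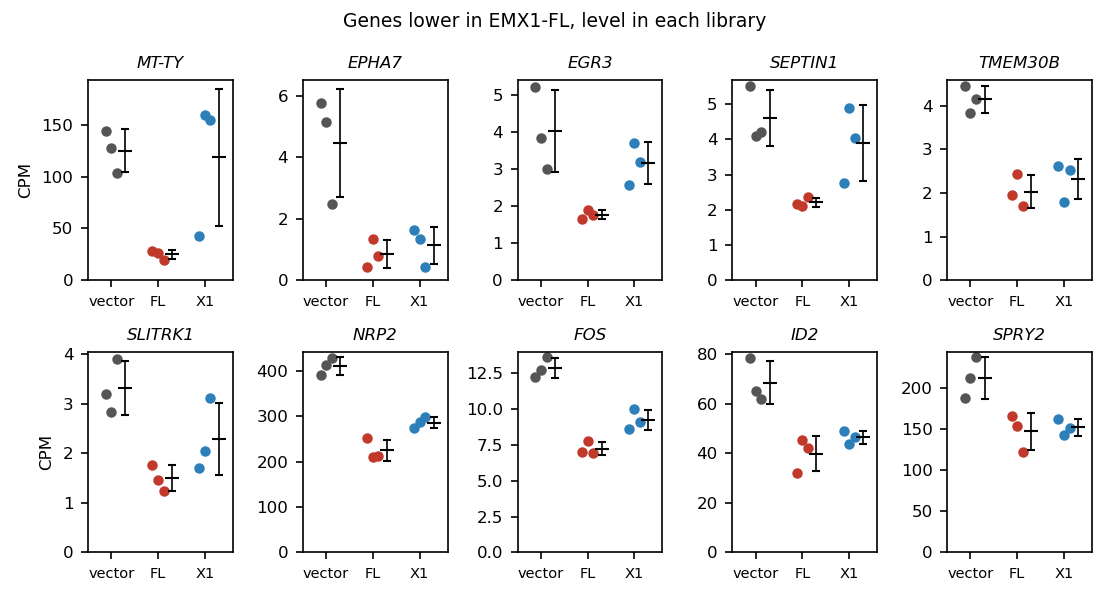
Level in CPM of 10 genes lower in EMX1-FL cells, in each library of vector control (grey), EMX1-FL (red) and EMX1-X1 (blue), with the mean and SD of each group in black. In all 10 the EMX1-FL libraries are below the vector control libraries. No overlap was a condition of the rule of smallest p that named MT-TY, EPHA7, EGR3, SEPTIN1, TMEM30B and SLITRK1. NRP2, FOS, ID2 and SPRY2 are below the fold change required by the study threshold.

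Transcripts of the mitochondrial genome were lower in part. Of the 13 mitochondrially encoded messenger RNAs 6 were lower and 1 was higher at an unadjusted p under 0.05, none passed the study threshold, and the median log2 fold change was -0.47. Over all genes tested 1.83% were lower and 3.97% higher at that p. In EMX1-X1 cells, against the same vector control, the median of the 13 was -0.65, so the lower levels were not particular to EMX1-FL. MT-CO3, a subunit of cytochrome c oxidase, was at 3610, 3630 and 4190 CPM in the vector control and at 1870, 2500 and 2210 CPM in EMX1-FL cells (log2 fold change -0.80, adjusted p = 0.0679). MT-ND5, a subunit of complex I, was at 5410, 6090 and 6900 CPM against 2380, 4940 and 4120 CPM (log2 fold change -0.68, adjusted p = 0.653). EMX1-FL replicate 1 was the lowest in both, and the groups did not overlap. Without that library the log2 fold changes were -0.69 for MT-CO3 and -0.43 for MT-ND5, and the median of the 13 was -0.19. MT-ATP8, the higher transcript, was at 58.5 CPM in EMX1-FL replicate 1 and at 30.1 and 31 CPM in the other EMX1-FL libraries, against 20.1 to 29.8 CPM in the vector control. MT-ATP8 shares 22.2% of its bases with another gene. The part of EMX1-FL replicate 1 and its other differences in these values was not tested further.

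Of 15 mitochondrial transfer RNA genes tested 5 passed the study threshold, all lower, where 0.382% of all genes tested were lower. In 3 of the 5 the counts were low: MT-TA, MT-TV and MT-TD were at 0.626, 1.22 and 3.36 CPM on average in the vector control and at 0.0583, 0.554 and 1.54 CPM in EMX1-FL cells. In MT-TV and MT-TD the libraries of the groups overlapped. Whether these 3 calls hold without a single library was not tested. Transfer RNAs are short and modified and are poorly captured by libraries made for messenger RNA, and their neighbours on the genome are transcribed together with them. MT-TY, the tyrosine transfer RNA, was at 144, 128 and 103 CPM in the vector control and at 28.5, 26.2 and 19.8 CPM in EMX1-FL cells (log2 fold change -2.33, standard error 0.40, adjusted p = 0.0627). No library of one group came near the other. In EMX1-X1 cells it was at 42.4 CPM in replicate 1 and at 159 and 155 CPM in the other two. MT-TL1, the leucine transfer RNA, was at 47.2, 38.8 and 41.8 CPM against 8.92, 26.6 and 26.1 CPM, and lost the study threshold without EMX1-FL replicate 1 or vector control replicate 1.

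**Figure D3:**
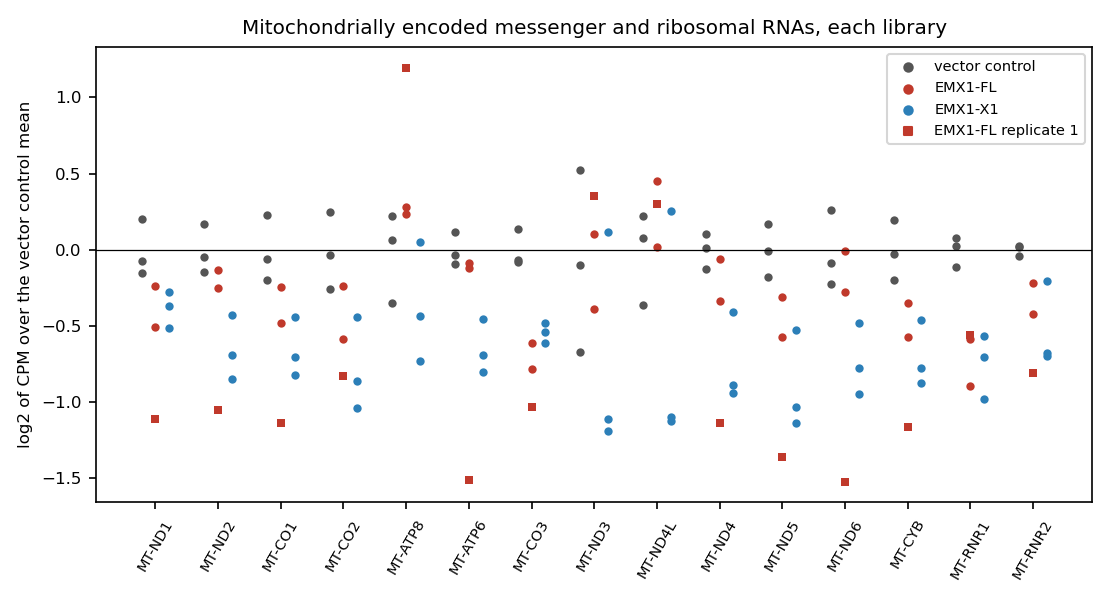
For each mitochondrially encoded messenger or ribosomal RNA, the log2 ratio of the CPM in each library to the mean of the vector control libraries (vector control grey, EMX1-FL red with replicate 1 as a square, EMX1-X1 blue). EMX1-FL replicate 1 is the lowest EMX1-FL library in most of them, and MT-ATP8 is higher in all 3 EMX1-FL libraries than in the vector control.

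The differences of the ribosomal protein gene RPL38 and the pseudogene RPS2P5 rested on EMX1-FL replicate 1. RPL38, with 17.7% of its exon bases shared, was at 68, 98.5 and 148 CPM in the vector control and at 530, 141 and 138 CPM in EMX1-FL cells, and the groups overlapped. RPS2P5 was at 72.3, 87.8 and 116 CPM against 353, 116 and 123 CPM. Without EMX1-FL replicate 1 the log2 fold changes of RPL38 and RPS2P5 were 0.42 and 0.38, down from 1.37 and 1.10, and neither passed the study threshold. This library had 5.68% of its counts on ribosomal protein genes, against 3.58% and 3.47% in the other EMX1-FL libraries.

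Several lists showed little difference. None of 24 genes of the cell cycle and DNA replication passed the study threshold, 1 was lower at an unadjusted p under 0.05 by edgeR (PLK1), and the median log2 fold change was -0.018. MKI67, the proliferation marker, was at 380 CPM in both groups on average, and PLK1, a mitotic kinase, at 71.9, 71.2 and 93 CPM against 64.1, 55.1 and 56 CPM (log2 fold change -0.43, unadjusted p = 0.0441 by edgeR). No gene passed among 15 interferon-stimulated genes (median 0.10), 18 genes of the unfolded protein and amino acid stress responses (median -0.055), 15 targets of beta-catenin (median 0.19) or 17 targets of p53 and CDK inhibitors (median 0.04). At an unadjusted p under 0.05 by edgeR these lists had 0, 0, 1 and 1 genes. Of 19 genes of cholesterol synthesis 16 were above 0, with a median of 0.26, none passed the study threshold, 2 were higher at an unadjusted p under 0.05 by edgeR, and without EMX1-FL replicate 1 the median was -0.16. Over all genes tested 56.3% were above 0, and 2.04% were higher at the study threshold. Other list medians that moved without EMX1-FL replicate 1 were those of the stress responses (-0.39), the p53 targets (0.18), the EMT transcription factors (0.20), the hepatocyte transcription factors (0.38) and the tryptophan genes (1.10). Among the 20 genes of hypoxia and glycolysis EGLN3 was higher, from 0.383 to 1.11 CPM on average, with a list median of 0.0078. Among 7 chemokines and cytokines tested CCL2 was higher, from 0.43 to 1.11 CPM, with a list median of 0.28. CCL2 lost the study threshold without EMX1-FL replicate 1 (unadjusted p = 0.0566 by edgeR), EMX1-FL replicate 2 or vector control replicate 3. Among 9 oncofetal and stem cell genes, with a median of 0.24, CD24 and KIT were higher, with KIT at 0.3, 0 and 0.0412 CPM against 0.843, 0.716 and 0.785 CPM, and among 8 clustered histone genes, with a median of -0.24, H3C2 was lower, from 0.692 to 0.248 CPM, a call lost without vector control replicate 1.

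**Figure D4:**
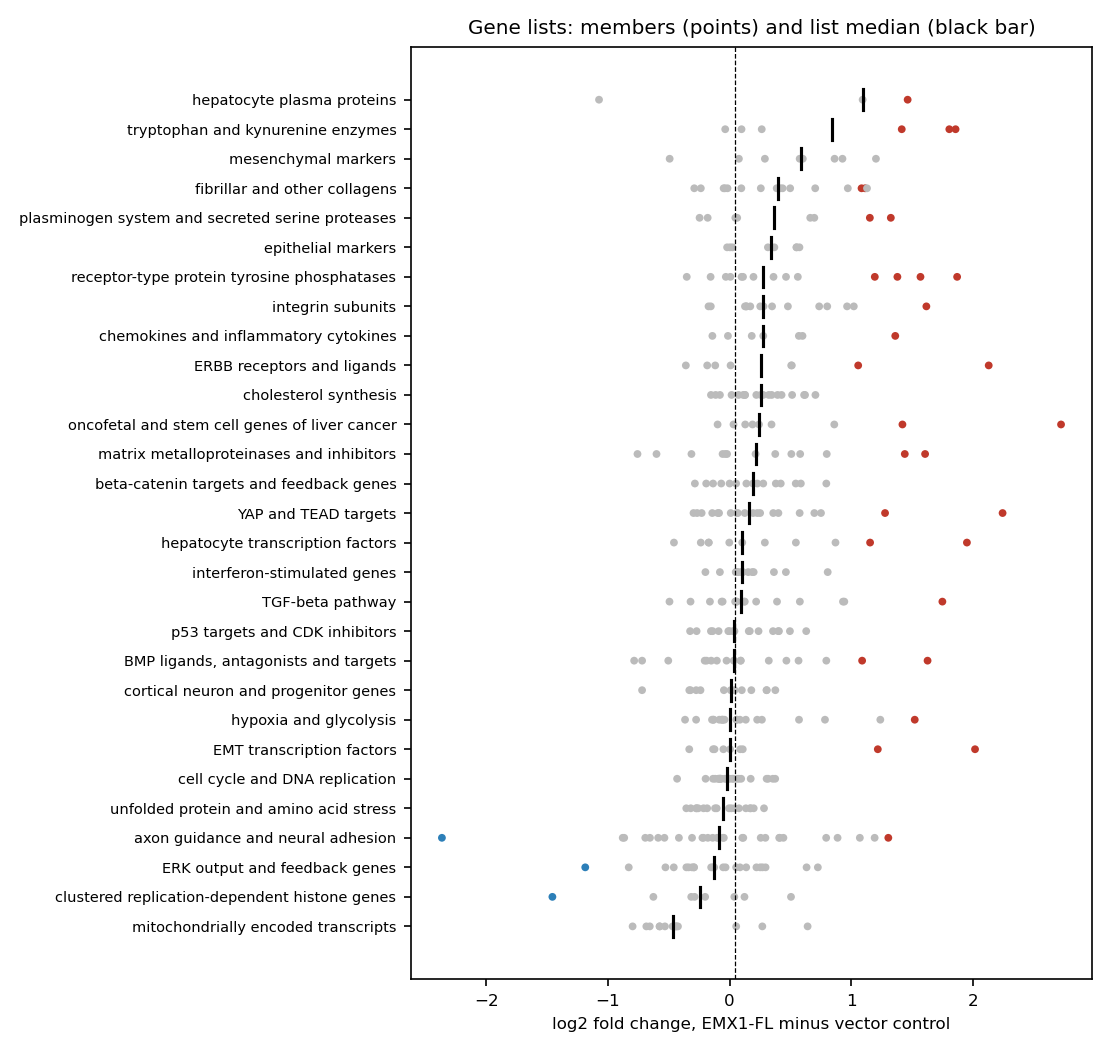
Each point is a gene of the list named at the left, at its log2 fold change, EMX1-FL minus vector control; genes past the study threshold are red (higher) or blue (lower), the black bar is the list's median and the dashed line the median of all genes tested, 0.045. The mitochondrially encoded transcripts have the lowest median, -0.47, and the list medians of the cell cycle and stress genes lie near 0.

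EMX1-X1 cells were set beside EMX1-FL cells for some of the genes named, from the same fit. Both groups are compared with the same vector control, and these genes were selected for a difference between EMX1-FL and vector control, so their values in both groups are given side by side. Over all genes tested 1418 differed between EMX1-FL and EMX1-X1 at an unadjusted p under 0.05 (7.63%), and none at an adjusted p under 0.05 by edgeR's quasi-likelihood test. All 13 genes past the adjusted threshold had a positive log2 fold change against the vector control in EMX1-X1 cells, from 0.67 for MMP1 to 4.50 for EMX1. MMP1 was at 13.4, 11.6 and 11.7 CPM in EMX1-X1 cells, below every EMX1-FL library. The difference, EMX1-FL minus EMX1-X1, was 0.94 on the log2 scale (standard error 0.19, unadjusted p = 0.000333, adjusted p = 0.611 by edgeR). For SNAI2 it was 0.75 (unadjusted p = 0.00357), for TDO2 0.79 (unadjusted p = 0.00566) and for GREM1 0.65 (unadjusted p = 0.00937). In PLAAT1, SLC35D3, KCNA1, PTPRK and TGFBR2 the difference was between 0.13 and 0.30, with unadjusted p between 0.202 and 0.606 by edgeR. EGFR, at 22.8, 22.2 and 20.8 CPM in EMX1-X1 cells, lay between the vector control and EMX1-FL cells, with a difference of 0.49 (standard error 0.18, unadjusted p = 0.0186, adjusted p = 0.611). EPHA7 was at 1.62, 1.33 and 0.444 CPM in EMX1-X1 cells, a difference of -0.39 (unadjusted p = 0.486), while ANKRD1 was at 1.12, 0.748 and 0.646 CPM, a difference of 1.54 (unadjusted p = 0.00115). For MMP2, SOX11, COL6A3 and EGLN3 the log2 fold changes against the vector control were 1.44, 1.52, 1.12 and 1.52 in EMX1-FL cells. In EMX1-X1 cells they were 1.51, 1.71, 1.46 and 1.80, so these higher levels were not particular to EMX1-FL.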

How the data were processed

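RNA-seq libraries of 9 SNU-398 samples were grouped by the sample titles. Unnormalized counts for 60642 gene names were deposited, which the authors made from read pairs, by the file header, with featureCounts 2.0.1 on Ensembl release 99 of GRCh38. The submitters' processing notes list bcl2fastq 2.1.7, fastp, STAR, featureCounts 2.0.6 and hg38, and the methods name RSEM. The authors also deposited log2 values, log2(TPM + 1), which were used only in alternatives and in choosing named genes by TPM. Counts on exons shared by genes are not assigned, which lowers overlapping genes.

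Low counts were filtered with filterByExpr, leaving 18574 genes, and tested with edgeR 4.0.16 in R 4.3.3 (TMM, quasi-likelihood, all 9 libraries in one model, Benjamini-Hochberg adjustment), with a p threshold of 0.05 and a log2 fold threshold of 1. The p-values given for group differences in single genes are those of edgeR. An exact permutation test of log2 CPM was also run for the named genes, with 0.1 as its smallest possible p. The scripts were tested on simulated data. Total counts were 21562703 to 25197970 per library, and low genes have the larger errors. Alternatives used limma 3.58.1, DESeq2 1.42.0, other normalizations and filters, the replicate number as a block, the cluster of libraries, GC offsets and left-out libraries.

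The members and gene lists were chosen with earlier results of these data known. Named genes were EMX1 and EGFR, genes past the adjusted threshold, the 15 higher and 15 lower genes of smallest p past the study threshold with at least 1 CPM in the higher group and no overlap, the 8 higher and 8 lower genes by TPM difference at p under 0.05, and in each list up to 4 members past the threshold, or the 1 of smallest p. Other list members, GFRA1 and ITGBL1 were chosen after their values were seen.

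One gene of a list is not reported here by name.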

Additional observations from a re-analysis of the deposited data

How the results depend on the processing

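Of the fits of all genes, 450 genes passed the study threshold and 13 the adjusted one. The first count became 142 with limma on log2(TPM + 1), 947 with no filter on low counts and 217 with at least 10 counts in each library. The second became 125 with DESeq2, 4 with limma on log2(TPM + 1) and 4 on log2(TPM + 0.1), 120 with no filter, 4 with the 6 libraries only, 111 with the cluster of libraries as a term, 94 with a GC offset and 2 with glmTreat against a fold of 1.5. Leaving out 1 library gave 437 to 676 and 1 to 88 genes. Without EMX1-FL replicate 1 the 676 were 449 higher and 227 lower (66.4% higher, against 84.2% with all libraries). All 13 genes remained past the adjusted threshold with DESeq2, with no filter, with the cluster term, with the GC offset and without EMX1-FL replicate 1. The causes were not tested. EMX1 kept its direction and call, with log2 fold changes from 3.70 to 4.18. For the named genes, 2222 values kept direction and side of the threshold, 94 lost the threshold, 22 gained it and 0 reversed. For single genes and lists glmTreat was not run.

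With the replicate number as a block, 385 genes passed the study threshold and 1 the adjusted one, and 56 passed the latter with a GC offset and the block. The correlations of same-numbered vector control and EMX1-FL libraries, centred within each group, were -0.297, 0.17 and -0.278. The libraries numbered 1 lie in different clusters, as do those numbered 3, while those numbered 2 share cluster A. The correlations therefore cannot tell whether libraries of the same number share a culture or a batch. Low counts limit genes under 1 CPM, where the median standard error of the log2 fold change was 0.61.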

Other observations

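The transfer RNA genes MT-TN, MT-TC and MT-TY follow one another in that order on the mitochondrial genome. The counts of MT-TN and MT-TC did not separate the groups as those of MT-TY did. In counts per total counts of the library, scaled to 1000000, MT-TC was at 121, 133 and 159 in the vector control and at 227, 48.6 and 42.6 in EMX1-FL cells, with EMX1-FL replicate 1 above and the other EMX1-FL libraries below every vector control library. MT-TN was at 37.9, 67.4 and 124 in the vector control and at 149, 74.3 and 62.7 in EMX1-FL cells, and the groups overlapped. Neither passed the study threshold, with log2 fold changes of -0.41 for MT-TC and 0.28 for MT-TN (unadjusted p = 0.433 and 0.707 by edgeR).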
